A study of Rattus norvegicus with 2 samples.

Results

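Neurofilament and axonal cytoskeleton genes of the rat were examined as a set of 7: the neuronal intermediate filament genes Nefl, Nefm, Nefh, Ina and Prph, and the axonal genes Gap43 and Uchl1. They were chosen by name, with earlier results of these data known, so the shares and ranks below only describe them. A probe was counted to a gene when its transcript accession mapped to that gene in RefSeq. All 7 were measured, of 16581 named genes on the array and 13428 that were well above background on both arrays. They were read by 9 probes on 46 spots, all 46 of them well above background for either sex.

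The tissue was the nucleus of the solitary tract (NTS), the part of the dorsal medulla where cardiovascular and visceral sensory fibres end. Both groups were spontaneously hypertensive rats (SHR), which are inbred for high blood pressure, 9 weeks old and without any treatment named in the labels. The first group was a pool of RNA from 5 females and the second a pool from 5 males, with 100 ng from each rat, and each pool was hybridised to 1 array. With 1 pooled array per sex, the variation between animals cannot be estimated, so no test was possible and every difference below compares 2 pools.

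Neurofilaments are the main intermediate filaments of large axons. The light subunit (Nefl) forms the core polymer with the medium (Nefm) and heavy (Nefh) subunits, whose long phosphorylated tails help to set axon calibre and with it conduction speed. Alpha-internexin (Ina) joins these polymers in the central nervous system, while peripherin (Prph) is found in peripheral neurons and in brainstem and spinal neurons whose axons leave the brain. Gap43 is a membrane protein of growth cones and presynaptic endings, and Uchl1 is a ubiquitin hydrolase that is abundant in nearly all neurons. In the dorsal medulla, the vagal and hypoglossal motor nuclei next to the NTS hold neurons rich in neurofilament and peripherin.

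The RefSeq promoter table of build GRCr8 held 3 of the 7 members. The 250 bases before the gene start are shown for Ina and Prph, the only intermediate filament members it held. Nefl, Nefm, Nefh and Gap43 had no entry, so their promoters could not be set beside these. Capitals mark TATAAA, the core of a TATA box, and GGGCGG, the core of a GC box, on either strand; the matches do not overlap.
Ina, chr1:255837879-255838128, plus strand: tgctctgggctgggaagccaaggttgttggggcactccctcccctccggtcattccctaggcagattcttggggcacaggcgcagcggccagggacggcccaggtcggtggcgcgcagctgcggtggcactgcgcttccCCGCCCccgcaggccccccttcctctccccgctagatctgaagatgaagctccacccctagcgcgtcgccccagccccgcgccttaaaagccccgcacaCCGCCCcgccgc
Prph, chr7:132097039-132097288, plus strand: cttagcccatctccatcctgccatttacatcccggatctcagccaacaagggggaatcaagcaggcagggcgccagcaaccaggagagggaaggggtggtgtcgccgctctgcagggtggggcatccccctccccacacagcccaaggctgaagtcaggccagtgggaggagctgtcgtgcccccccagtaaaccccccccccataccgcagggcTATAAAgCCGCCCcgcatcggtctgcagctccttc
The Prph window held 1 TATAAA and 1 GGGCGG match, and the Ina window held no TATAAA and 2 GGGCGG matches. Over 33469 promoter windows of the same length, 12.9% held TATAAA and 30.5% held GGGCGG on at least one strand. These matches describe the letters in the windows and were not related to the array values. Nefl and Nefm lie side by side on chromosome 15 in that assembly, with only the pseudogene Slc25a3-ps1 between them.

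Signals are given as scaled signal, the processed spot intensity divided by the array's 75th percentile and multiplied by 100. Differences are female minus male on the log2 scale, and folds are written as ratios above 1 with the lower pool named. The arrays were alike in quality: 82.3% of spots for the female pool and 80.1% for the male pool were well above background, none was saturated, and both arrays were on 1 slide read in 1 scan. The sex labels were checked with Eif2s3y, a Y-linked gene, which was not well above background in the female pool and read 22.4 in the male pool, a bound of at least 65.0-fold. The SD of the difference over all genes was 0.23 on the log2 scale. Among 1126 probes that were as bright as the brightest 25% of measured genes and were printed at least 8 times, the median SD between repeated spots was 0.04. That spot SD covers the printed spots and the scan, not animals, pools or labelling.

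The 3 neurofilament subunit genes had lower signal in the female than in the male NTS pool, by 1.31-fold to 1.35-fold, while Gap43 and Uchl1 were within 1.03-fold. Ina and Prph lay between, at 1.06-fold and 1.13-fold lower in the female pool. All 7 members were lower in the female pool, a direction shared by 44.5% of all measured genes. At 1.2-fold or more, 3 of 7 members were lower in the female pool, against 4.48% of measured genes, and no member was higher against 7.31%. At the threshold of 1.5-fold used for calling, none of the 7 was lower, against 0.797% of measured genes, and none was higher, against 1.5%. In bulk tissue, fewer cells of a type and less RNA per cell cannot be told apart.

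Nefl, the light subunit, gave a scaled signal of 139 in the female pool, against 188 in the male pool. The difference of its single spot was -0.44, or 1.35-fold. The scanner software gave the spots of every member probe the same error of 10%, which amounts to 0.20 for a log2 difference. The Nefl difference was thus larger than that error.

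Nefm, the medium subunit, was read most closely, by 12 spots of 2 probes. On the first probe, A_42_P752336, the 10 spots ran from 483 to 537 with a median of 509 in the female pool, against 650 to 690 with a median of 678 in the male pool. Every female spot lay below every male spot, and the difference was -0.41 ± 0.04 (SD over 10 spots), or 1.33-fold. Of the 1126 bright probes with repeated spots, 6.75% had all female spots below all male spots. On the second probe, A_44_P1081675, the spots read 229 and 234 in the female pool, against 300.02 and 302.7 in the male pool. The second probe differed by -0.38, so both probes gave nearly the same size, and their mean for the gene was -0.40.

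Nefh, the heavy subunit, read 39.9 in the female pool, against 52.1 in the male pool. Its single spot gave a difference of -0.39, or 1.31-fold. The subunits differed from each other by little: Nefl, the lowest, was 0.04 below Nefm, which was the size of the median spot SD, and Nefm was 0.01 below Nefh.

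Prph, the peripherin gene, read 409 in the female pool, against 463 in the male pool. Its difference of -0.18 rested on 1 spot and was smaller than the 0.20 that the scanner error allows. It was 0.21 above that of Nefh and 0.10 below that of Ina. Nefh also rested on 1 spot. The step between Nefh and Prph was about as large as the scanner error of a single difference, which does not part them clearly.

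Ina, the alpha-internexin gene, had 2 probes that gave -0.08 each. The repeated probe ran from 287 to 329 with a median of 313 in the female pool, against 313 to 345 with a median of 332 in the male pool. The ranges of the 2 arrays overlapped, although each of the 10 spots read lower in the female pool, with an SD of 0.04. The other probe read 808 in the female pool and 855 in the male pool.

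Gap43 had 10 spots from 783 to 808 with a median of 798 in the female pool, against 801 to 850 with a median of 819 in the male pool. The ranges overlapped, and the difference was -0.04 ± 0.02 (SD over 10 spots). Uchl1 had 10 spots from 3600 to 3855 with a median of 3765 in the female pool, against 3769 to 3977 with a median of 3860 in the male pool. Its difference was also -0.04, with an SD of 0.03, and its ranges overlapped too. On each of these probes all 10 spots read lower in the female pool, but a step of that size depends on how the arrays are scaled. Centring on the 8 spike-in control probes, which adds 0.08 to every gene, turned Gap43 and Uchl1 to 0.035 each.

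**Figure D1:**
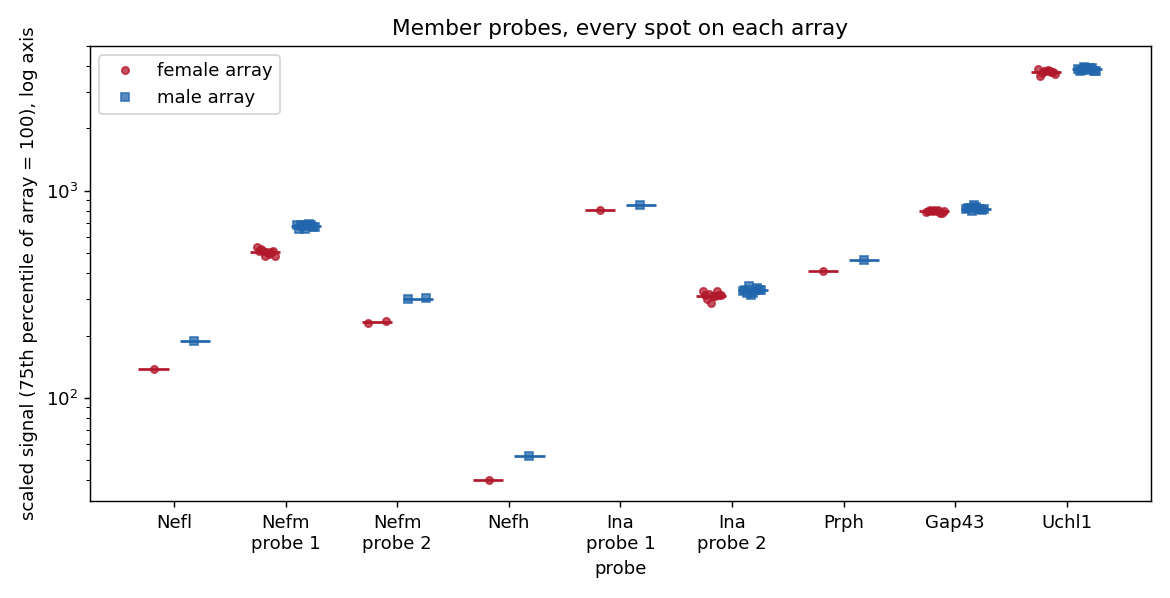
Scaled signal of each member probe on a log axis, with 1 point per printed spot, the female array as red circles on the left and the male array as blue squares on the right, and the mean as a bar. The 10 female spots of the first Nefm probe end at 537, below the lowest male spot at 650, whereas the spots of Gap43, Uchl1 and the second Ina probe overlap between arrays.

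The Nefm spots lay apart from those of Gap43, Uchl1 and Ina, whose spot differences overlapped one another. The lowest spot difference of Gap43 was -0.07 and that of the repeated Ina probe -0.13, while the highest of the 12 Nefm spots was -0.34. No spot of Gap43, Uchl1 or Ina reached the range of Nefm. Relative to Gap43 on the same arrays, Nefl was lower by a log2 step of -0.39, Nefm by -0.35 and Nefh by -0.34, and these steps do not change when an array is rescaled by a constant.

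**Figure D2:**
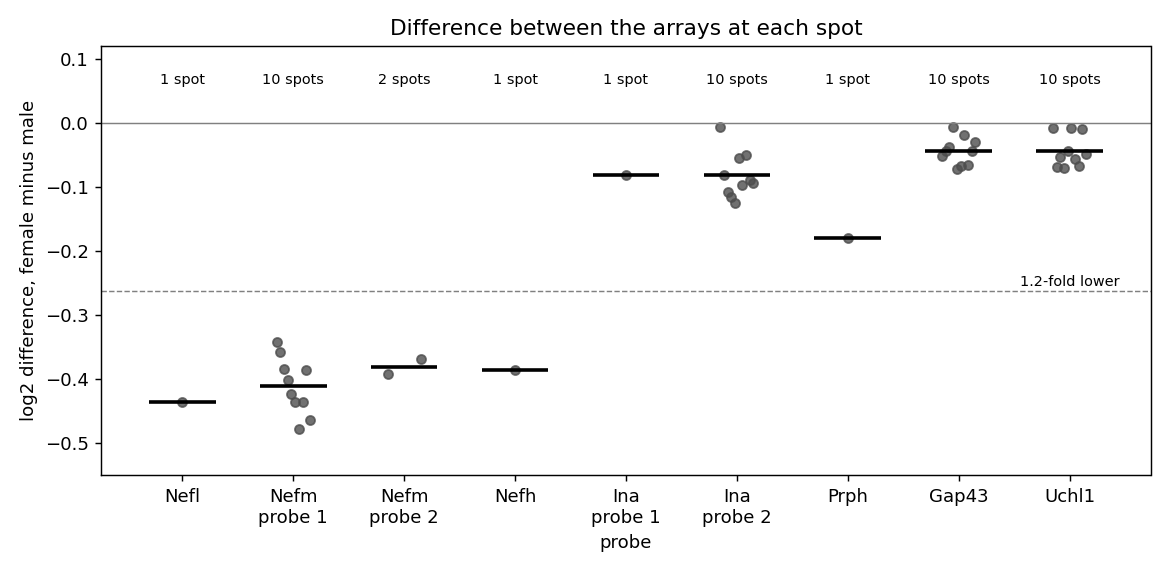
Log2 difference, female minus male, at each spot of the 9 member probes, with the probe mean as a bar and the 1.2-fold line dashed. All spots of Nefl, Nefm and Nefh lie below the dashed line, and those of Ina, Prph, Gap43 and Uchl1 lie above it.

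Few genes of like signal had lower differences than the neurofilament subunits. Differences were narrower in bright genes: the SD was 0.13 in the 3357 genes of the brightest 25%, which held every member but Nefh. In that bright range, 1.13% of genes were at least 1.2-fold lower in the female pool. Only 14 of those 3357 genes had a lower difference than Nefl and 16 had a lower one than Nefm. Of the 14, 7 were globin genes; the others, which were picked after their values were seen, included Wfdc1 at -1.06, the collagen gene Col1a2 at -0.76 and the small heat shock gene Hspb1 at -0.86. By percentile in the bright range, Prph stood at 2.89 and Ina at 14.5, with Gap43 and Uchl1 at 29.1. Nefh lay in the next 25% of genes by signal, where 25 of 3357 genes had a lower difference. With 2 arrays each gene has 1 difference, so genes sharing a member's pattern could not be picked out: 33 genes lay within 0.01 of Nefm and 823 within 0.01 of Uchl1.

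**Figure D3:**
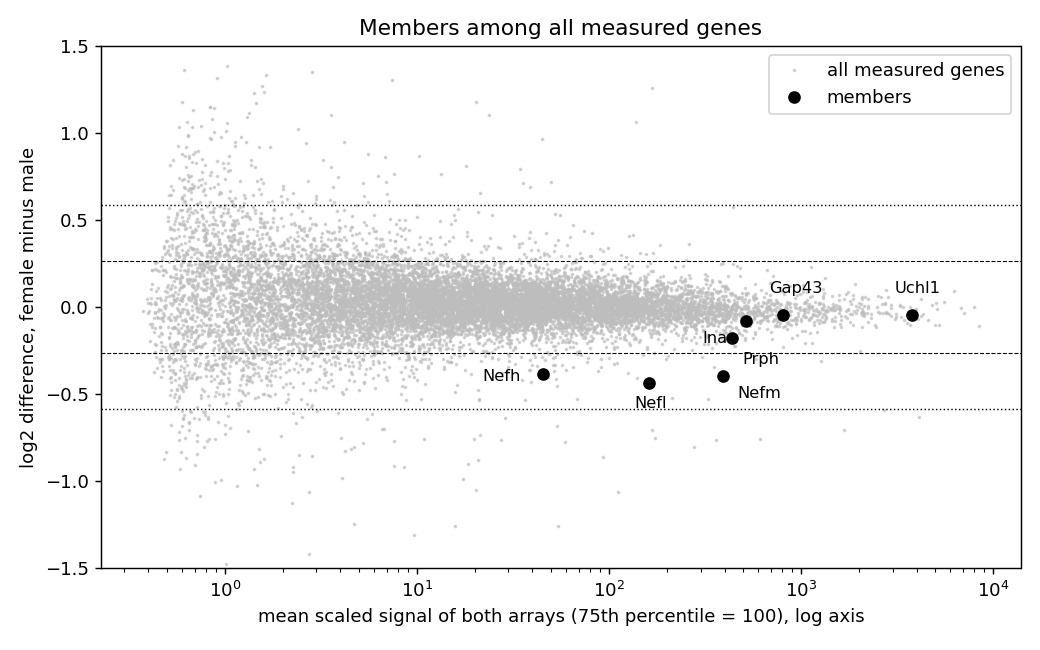
Log2 difference, female minus male, against the mean scaled signal of both arrays on a log axis, for all measured genes in grey and the 7 members in black, with 1.2-fold dashed and 1.5-fold dotted. Nefl, Nefm and Nefh lie between the 1.2-fold and 1.5-fold lines below 0, below most grey points at their signal; 29 genes beyond 1.5 on the log2 scale are outside the axis.

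Position on the array was examined for the members that rest on single spots. The bright spots within 10 rows and 10 columns of Nefl had a median difference of -0.02 over 130 spots, and those around Nefh -0.02 over 106 spots. Subtracting the local median of each spot left Nefl at -0.42, Nefm at -0.38 and Nefh at -0.37.

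Tubulin genes, which encode the microtubules of the axon, lay closer to 0 than the neurofilament subunits. None of the 13 measured tubulin genes was at least 1.2-fold lower in the female pool and 1 was higher, with a median of -0.06 (0.02 with spike-in centring), against 0.02 over all genes. The neuronal beta-tubulin gene Tubb3 was lowest at -0.11, with 317 in the female pool, against 341 in the male pool. Tubb6 was highest at 0.30, from a dimmer signal of 15.1 in the female pool, against 12.2 in the male pool.

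Microtubule-associated and axonal transport genes had no member past 1.2-fold. The 20 measured microtubule-associated genes had a median of 0.01 (-0.02 when each array was scaled to its median), from Stmn2, a tubulin-binding protein of growing axons, at -0.13 to Dcx, a protein of migrating young neurons, at 0.17. The 19 motor and adaptor genes of axonal transport had a median of -0.02 (0.06 with spike-in centring), from the dynactin gene Dctn2 at -0.08 to the dynein chain gene Dync1li1 at 0.10. The 13 genes of the membrane skeleton and its linkers had a median of -0.05 (0.03 with spike-in centring), from Nfasc, which builds nodes of Ranvier and the initial segment, at -0.17 to its ankyrin partner Ank3 at 0.09.

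Other intermediate filament genes, which include the nuclear lamins, did not share one direction. Of 10 measured, 5 were lower and 5 higher in the female pool, with 2 past 1.2-fold higher and none past it lower. Their median was 0.00, and it was below 0 with quantile, median and loess scaling. Gfap, the astrocyte filament, was lowest at -0.20, with 60.8 in the female pool, against 69.8 in the male pool. Krt18, an epithelial keratin, was highest at 0.30, with 14.7 in the female pool, against 11.9 in the male pool.

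Of 18 measured growth cone and regeneration genes, 2 were at least 1.2-fold lower in the female pool and none higher, with a median of -0.08 (-0.0024 with spike-in centring). Hspb1 was lowest at -0.86, with 69.5 in the female pool, against 126 in the male pool, and Sox11, a transcription factor of growing neurons, was highest at 0.23. Of 11 ubiquitin and ubiquitin hydrolase genes, none was past 1.2-fold, with a median of -0.04 (0.04 with spike-in centring), and the protease gene Usp5 was lowest at -0.20. Of 13 measured genes on a list of kinase, phosphatase and protein turnover genes, 1 was at least 1.2-fold lower, with a median of -0.04 (above 0 in 2 of 12 other settings). That gene was Fbxo2, which encodes a ubiquitin ligase subunit of neurons, at 523 in the female pool, against 643 in the male pool, a difference of -0.30. The kinase gene Gsk3a was highest at 0.16.

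Markers of the cells that carry neurofilament-rich axons are given beside the members, and their part in the member differences was not tested. Of 15 measured motor neuron markers, 5 were at least 1.2-fold lower in the female pool and none higher. At any size of difference, 10 were lower and 5 higher. The median of -0.13 ran from -0.25 to -0.05 over 12 other settings, not all of which keep the dim markers. Calca, the gene of calcitonin gene-related peptide, was lowest at -1.31, with 6.13 in the female pool, against 15.2 in the male pool. The nuclear receptor gene Esrrg was highest at 0.19, from a dim signal. The signals of that list summed to 339 in the female pool, against 407 in the male pool; Mmp9 was below background on at least 1 array.

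Of 17 measured markers of large projection neurons, 2 were at least 1.2-fold lower in the female pool and none higher, with a median of -0.11 (-0.03 with spike-in centring). They ran from Syt2, a calcium sensor of fast synapses, at -0.32 to the glutamate transporter gene Slc17a6 at 0.12. Their signals summed to 970 in the female pool, against 1004 in the male pool. Slc17a6, the brightest gene, made up much of that sum, with 402 in the female pool, against 370 in the male pool. The other 16 summed to 568 in the female pool, against 635 in the male pool. The 9 measured sensory ganglion markers had a median of -0.14 (from -0.80 to -0.06 over 12 other settings), with 4 at least 1.2-fold lower and 1 higher. Apart from Tac1, these markers read at most 15.2 in either pool. Limiting probes to those above the array median keeps few of them, so that range does not cover all 9 in each setting. Calca and Calcb are on this list too, and it ran from Calca to the dim sodium channel gene Scn10a at 0.69. Without its brightest gene, Tac1, its signals summed to 37.8 in the female pool, against 50.8 in the male pool. Prph is also known from such sensory neurons. General neuron markers had a median of 0.00 (below 0 in 2 of 12 other settings), with none of 17 at least 1.2-fold lower and 1 higher, and summed to 2665 in the female pool, against 2707 in the male pool. Among them Thy1, a surface protein of neurons, was lowest at -0.15 and the dim kinase gene Camk2a highest at 0.39.

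Oligodendrocyte markers were also lower in the female pool, and their part in the member differences was not tested. All 18 measured oligodendrocyte markers were lower in the female pool, 3 of them by at least 1.2-fold, with a median of -0.19 (-0.11 with spike-in centring). The lineage factor gene Olig1 was highest at -0.05. Their signals summed to 2431 in the female pool, against 2838 in the male pool. The 10 Schwann cell markers, read mostly from dim probes, had a median of -0.10 (-0.03 with spike-in centring), from Gldn at -0.76 to Ncmap at 0.38, with 3 at least 1.2-fold lower and 1 higher. Sox10 and Mal are on both myelin lists. The Schwann cell signals summed to 196 in the female pool, against 229 in the male pool.

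The 13 astrocyte markers had a median of 0.00 (below 0 in 5 of 12 other settings), from Gfap at -0.20 to the connexin gene Gjb6 at 0.21, none past 1.2-fold, and summed to 17240 in the female pool, against 17360 in the male pool. Of 15 choroid plexus markers, 14 exceeded 1.5-fold in favour of the female pool, with a median of 1.30, from Lmx1a at -0.03 to the potassium channel gene Kcnj13, dim in the male pool, at 4.56. Ttr, the thyroxine carrier, read 9325 in the female pool, against 617 in the male pool, and the other 14 summed to 756 in the female pool, against 314 in the male pool. Of 5 measured erythroid markers, 4 were at least 1.5-fold lower in the female pool, with a median of -0.75, from Slc4a1 at -0.93 to Bpgm at -0.03. They summed to 296 in the female pool, against 407 in the male pool. Without Hbb they summed to 162 in the female pool, against 182 in the male pool, mostly from Bpgm at 138 and 141. That list leaves out the brightest globin genes among those lower than Nefl. Of these, Hba-a1 read 3310 in the female pool, against 5130 in the male pool, and Hbbl1 2209 in the female pool, against 3323 in the male pool. How far these tissues account for the member differences was not tested.

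**Figure D4:**
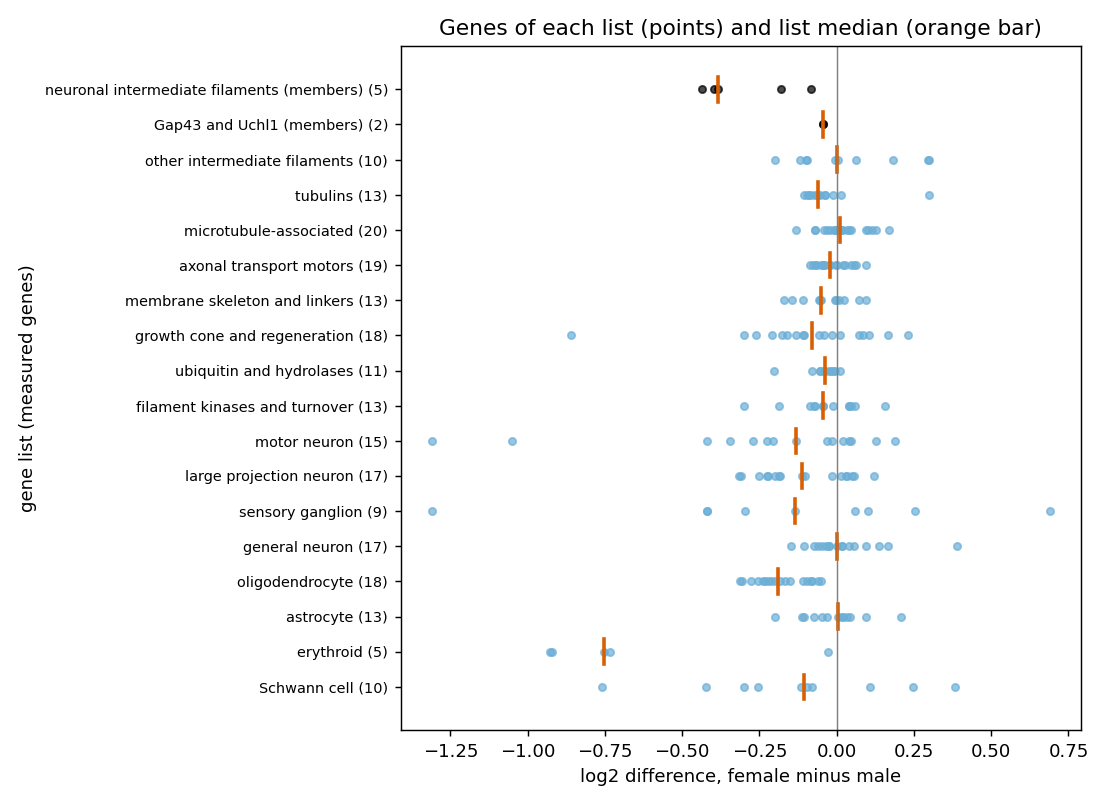
Log2 difference, female minus male, of each measured gene by list, members in black and other genes in blue, with the list median as an orange bar and the number of measured genes in brackets; the choroid plexus list is left out because it reaches 4.56. The neuronal intermediate filament members have a median of -0.39, the oligodendrocyte list one of -0.19, and tubulin, transport and general neuron lists lie near 0.

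The split among the members held over other ways to process the arrays. Under 13 other settings, the differences ran from -0.47 to -0.36 for Nefl, from -0.43 to -0.32 for Nefm and from -0.42 to -0.31 for Nefh, past 1.2-fold in all 13. Not all 13 could change these values. Keeping flagged spots or dim probes, limiting probes to those above the median and taking the median probe left every member unchanged. The authors' table, the same intensity over a constant, left them nearly unchanged. Prph ran from -0.21 to -0.10 and Ina from -0.11 to -0.0024, neither past 1.2-fold in any of them. Gap43 and Uchl1 were lower in the female pool in 12 of 13, spike-in centring being the exception.

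**Figure D5:**
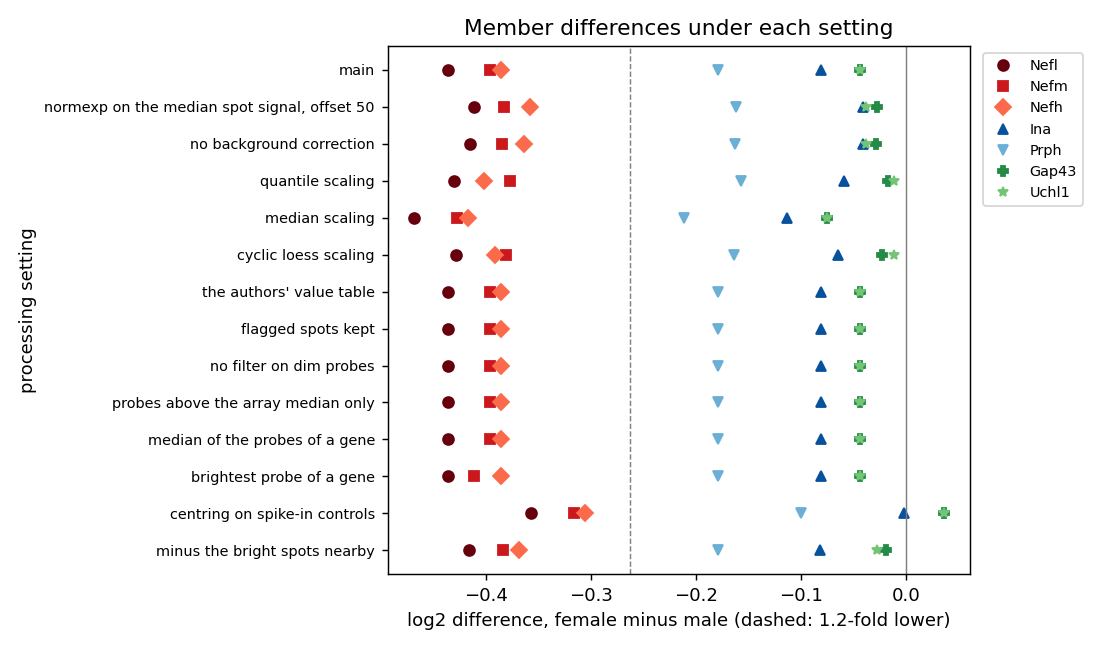
Log2 difference, female minus male, of each member under the main setting and 13 others, 1 row per setting, with the 1.2-fold line dashed. Nefl, Nefm and Nefh stay left of the dashed line in every row, though some rows repeat the main values. Gap43 and Uchl1 cross 0 with spike-in centring.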

How the data were processed

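The authors deposited Agilent Feature Extraction files with the processed intensity of each spot, background-corrected and on a linear scale (version 11.5.1.1 per the file headers, 9.1 per the submitters' processing notes). Per the labels' protocols, RNA of 5 rats a sex was pooled and labelled with Cy3. The authors' deposited value table equalled that intensity divided by 1 constant per array, 23.4 for the female and 22.8 for the male array. Its column medians were 19.6 for the female and 19.4 for the male array. No array replicate exists, so the number of arrays limits the precision.

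The value was log2 of the processed intensity minus the 75th percentile of the array. Control spots and spots flagged as outliers on either array were left out. Spots of a probe, then probes of a gene, were averaged. A probe was measured when more than 0.5 of its spots were well above background on both arrays. Of 45598 probes, 21109 were named through RefSeq accessions (assembly GRCr8, names only, since the array design uses an older assembly). Named genes were the members and the highest and lowest measured gene of each of 17 lists. A few further genes, such as those lower than Nefl, shared by lists or brightest in a list, were named after their values were seen. Some genes that the rule picked are left out of the text. The members and lists were chosen with earlier results of these data known. Normexp used each spot's median signal, since the files hold no mean. The averaging was tested on simulated data. Tools were Python 3.11.15, numpy 2.4.6, pandas 2.3.3, R 4.3.3 and limma 3.58.1.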

Additional observations from a re-analysis of the deposited data

How the results depend on the processing

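The median difference over the 7 members was -0.18 and moved by less than the spot SD of 0.04 in every other setting but centring on spike-in controls, where it was -0.10. No member passed 1.5-fold in either direction in any setting, and at a threshold of 1.2-fold 3 members were lower on the female array. The settings were normexp (offset 50) and no background correction, quantile, median, cyclic loess and spike-in scaling, the authors' table, flagged spots kept, dim probes kept or probes limited to those above the median, the median or brightest probe of a gene, and subtraction of nearby bright spots, which was chosen after seeing the data. Several of these left the member values unchanged or are the same bright spots under a constant step, so they add little. Gap43 and Uchl1 changed sign with spike-in centring, to 0.035 each, since it adds 0.08 to every gene; Ina was -0.041 with normexp and without background correction. The neurofilament subunits' median stayed between -0.43 and -0.32, and their step below the mean of Gap43 and Uchl1 between -0.39 and -0.35, over the 12 planned settings. Nefl, Nefh and Prph rest on 1 spot each. No paired analysis was possible because the sexes have a single array apiece, which leaves nothing to pair or test.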
